A study of Tachysurus vachellii and Tachysurus fulvidraco x Tachysurus vachelli and Tachysurus fulvidraco with 9 samples.

Results

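The miR-99, miR-100 and miR-125 families of juvenile catfish liver are described through 4 entries of a miRNA table: cgr-miR-100-5p_R+1, ola-miR-99_R+1_1ss10CT, aca-miR-125a-5p and sha-miR-125a. They were chosen by name, as the rows that stand for the miR-99, miR-100 and miR-125 families, and they are 4 of 888 entries and 4 of 728 distinct mature sequences. The libraries come from 3 lines of fish. The hybrid, Huangyou-1, has P. fulvidraco mothers and P. vachelli fathers, and the other lines are the pure species P. vachelli and P. fulvidraco. Each line has 3 small RNA libraries, and all 9 are from liver of juveniles reared by one procedure, each line in 3 aquaria. The labels do not say whether a library is 1 fish, 1 aquarium or a pool, so the p-values measure the spread between these libraries only.

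In vertebrates miR-99 and miR-100 are variants of one family, and their genes lie in clusters with a let-7 gene and a miR-125 gene, so that members of all 3 families can be cut from a shared transcript. miR-99 and miR-100 are known in mammals to restrain the growth kinase mTOR and the insulin-like growth factor receptor. miR-125 is the vertebrate relative of worm lin-4; in mammals it represses the let-7 inhibitor Lin28, and in zebrafish and human cells its b form represses p53. A mature miRNA finds its targets mainly through its seed, which is taken here as bases 2 to 8.

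The table pairs each name with its letters, which show what the names stand for. The sequences are printed as DNA, 5′ to 3′, with the seed in capitals, first the 4 members and then the 2 other 5′ arm sequences and 1 of the 3′ arm sequences of these families against which they are read.
cgr-miR-100-5p_R+1: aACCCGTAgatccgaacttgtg
ola-miR-99_R+1_1ss10CT: cAAGCTCGcttctgtgggtctct
aca-miR-125a-5p: tCCCTGAGacccttaacctgtg
sha-miR-125a: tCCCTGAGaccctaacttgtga
ssa-miR-99-5p: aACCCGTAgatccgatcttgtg
efu-miR-99b_R-3: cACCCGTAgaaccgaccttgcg
cgr-miR-100-3p_2ss10GA22GC: cAAGCTTGtatctataggtatc

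The 4 members carry 3 seeds. Both miR-125 members share one, and their first 13 bases are identical, after which they differ by an edit distance of 3. The letters of sha-miR-125a are those known in human as miR-125b, although the table names the entry miR-125a. They stand on a second entry of the table too, ssa-miR-125a-5p, with equal values. The third seed belongs to ola-miR-99_R+1_1ss10CT, whose name gives no arm. Its letters share the first 6 bases with cgr-miR-100-3p_2ss10GA22GC and lie at an edit distance of 7 from it, against 14 to 15 from the 3 miR-99/100 sequences of the 5′ arm. In a predicted duplex it forms 16 to 17 base pairs with those 5′ arm sequences, at -19.0 to -19.2 kcal/mol, and 10 to 11 with the miR-125 members, at -14.6 to -17.2 kcal/mol. Such duplexes do not tell the families apart. The miR-125 sequence ssa-miR-125a-2-3p_3ss20CG21GC22CT of the 3′ arm forms 16 base pairs with cgr-miR-100-5p_R+1 at -17.4 kcal/mol. For cgr-miR-100-3p_2ss10GA22GC with the same 5′ arm the energy is -15.0 kcal/mol. By the likeness of its letters to cgr-miR-100-3p_2ss10GA22GC, ola-miR-99_R+1_1ss10CT is described as a 3′ arm sequence, and its level is not that of the miR-99/100 seed. The miR-99 sequence with that seed is ssa-miR-99-5p, which differs from cgr-miR-100-5p_R+1 by A16T, with the miR-100 base first and positions counted from the 5′ end.

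Values are the authors' normalized read counts. The estimated reads behind a library, its total over all entries divided by the value of 1 read, ran from 5737230 to 8579460. All 4 members reached 10 in at least 3 libraries and were tested among 278 sequences with limma. Most of them are abundant: by mean level cgr-miR-100-5p_R+1 was number 3, sha-miR-125a number 14 and aca-miR-125a-5p number 55, while ola-miR-99_R+1_1ss10CT was number 258. As a check of the tissue, sequences of the hepatocyte miRNA miR-122 summed to 1763480 to 1884860 in the hybrid, 2287590 to 2787560 in P. vachelli and 1879990 to 2128860 in P. fulvidraco.

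**Figure D1:**
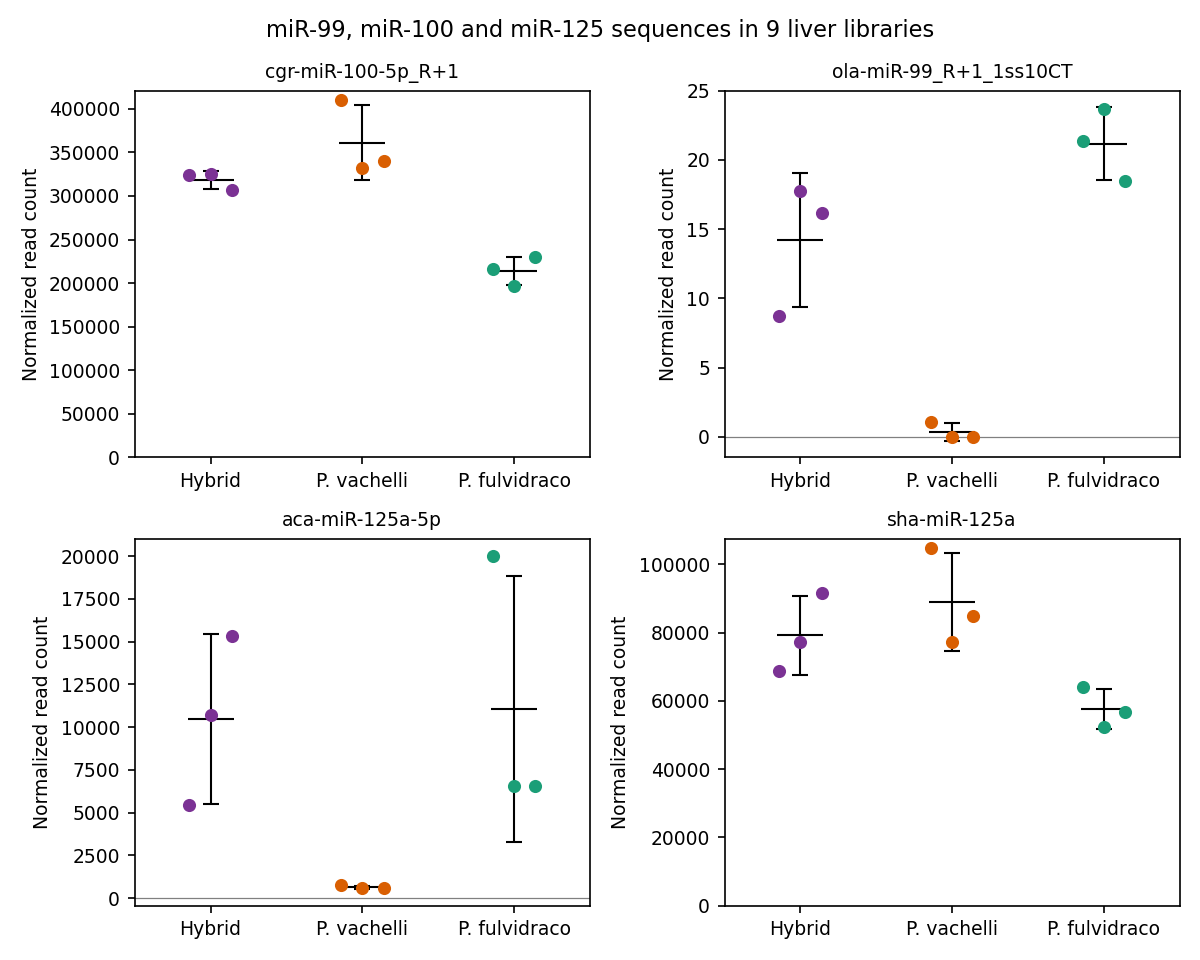
Normalized read counts (y axis) of the 4 members in the 9 libraries, by line (x axis). Points are libraries and bars are the mean ± SD of 3 libraries; aca-miR-125a-5p lies between 568 and 737 in P. vachelli and at 5417 or more in the other lines.

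miR-100 was the dominant member. cgr-miR-100-5p_R+1 stood at 324250, 325344 and 306518 in the hybrid, at 410511, 332516 and 340401 in P. vachelli, and at 215930, 197049 and 229355 in P. fulvidraco. All hybrid and P. vachelli libraries lay above those of P. fulvidraco, and the hybrid libraries lay just under those of P. vachelli. As a share of the library total it made up 5.11% to 5.74% in the hybrid, 4.45% to 5.45% in P. vachelli and 3.47% to 3.67% in P. fulvidraco. This total counts each distinct sequence at the value of a single entry, and shares of the larger total over all entries would be lower. On the scale of these shares the order of the hybrid and P. vachelli is turned round, and their ranges overlap. Against P. fulvidraco the hybrid was higher (log2 fold change 0.58, SE 0.092, limma adjusted p = 0.00277). P. vachelli was higher than P. fulvidraco as well (log2 fold change 0.75, SE 0.092, limma adjusted p = 0.000117), and by 0.45 with libraries scaled to equal totals. The hybrid did not differ from P. vachelli past the threshold (log2 fold change -0.17, 95% interval -0.38 to 0.032, limma adjusted p = 0.171), and with libraries scaled to equal totals that difference turned to 0.17.

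The abundant miR-125 sequence followed the same order. sha-miR-125a had values of 68662, 77374 and 91536 in the hybrid, 104802, 77191 and 84986 in P. vachelli, and 64048, 52475 and 56727 in P. fulvidraco. The libraries of P. fulvidraco were the lowest, and those of the hybrid and P. vachelli overlapped. P. vachelli was above P. fulvidraco (log2 fold change 0.62, SE 0.14, limma adjusted p = 0.00498), a call that was narrowly lost with libraries scaled to equal totals (log2 fold change 0.31, adjusted p = 0.0503). The hybrid was 0.45 above P. fulvidraco on the log2 scale, just outside the threshold (limma adjusted p = 0.0514). That difference passed with equal totals (adjusted p = 0.0171), with equal totals without the most abundant miRNA (0.0285), with the entries of a sequence summed (0.0476), and without hybrid library 1 (0.0327), P. vachelli library 1 (0.0302) or P. fulvidraco library 1 (0.0453). Between the hybrid and P. vachelli the log2 fold change was -0.17 (95% interval -0.48 to 0.15, limma adjusted p = 0.392), and it turned to 0.18 with equal totals.

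The values of sha-miR-125a are those of a single entry and may hold only part of its reads. For the low 3′ arm sequence ssa-miR-125a-2-3p_3ss20CG21GC22CT, also on 2 entries, the value of a single entry was a whole number of reads within 0.1 read in 5 of 9 libraries. The sum of both entries was whole within 0.1 read in 9 of 9, so reads of that sequence were divided between its entries.

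aca-miR-125a-5p, with the same seed, behaved otherwise. It stood at 5417, 10711 and 15341 in the hybrid, at 737, 568 and 574 in P. vachelli, and at 20024, 6550 and 6554 in P. fulvidraco. The P. vachelli libraries were low and close together, while those of the hybrid and P. fulvidraco were high, spread widely and overlapped. The mean was 16.7 times higher in the hybrid than in P. vachelli (log2 fold change 3.95, SE 0.47, limma adjusted p = 0.000263). P. vachelli was lower than P. fulvidraco by a similar amount (log2 fold change -3.93, SE 0.47, limma adjusted p = 9.08e-05). Between the hybrid and P. fulvidraco no difference was detected (log2 fold change 0.017, limma adjusted p = 0.986), with a 95% interval of -1.03 to 1.06 that leaves room for a 2-fold difference either way. The 3′ arm sequence that carries the same name, aca-miR-125a-3p_2ss20AG22TC, was at 0 in 8 libraries and at 1.19, the value of 1 read, in P. vachelli library 3.

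ola-miR-99_R+1_1ss10CT, the 3′ arm sequence, was rare. It had values of 8.71, 17.7 and 16.2 in the hybrid, 1.07, 0 and 0 in P. vachelli, and 21.4, 23.7 and 18.5 in P. fulvidraco. These correspond to 41 reads in the hybrid, 1 read in P. vachelli and 67 reads in P. fulvidraco over 3 libraries each. The P. vachelli libraries were all under their floor of 3 reads, 2.69 to 3.56, and the hybrid libraries all lay below those of P. fulvidraco, by less than 1 between the nearest. With reads scaled by the value of 1 read, on the deposited scale, the hybrid held 40.6 times the level of P. vachelli. Its exact 95% interval of 6.90 to 1643 covers counting error only. For P. fulvidraco over P. vachelli the ratio was 61.0, with an interval of 10.6 to 2445. The fitted log2 fold changes were 3.52 for the hybrid against P. vachelli (limma adjusted p = 0.000263) and -4.11 for P. vachelli against P. fulvidraco (limma adjusted p = 3.87e-05). Their size depends on the pseudocount. The sequence passed the filter only through the hybrid and P. fulvidraco, so the filter favoured a lower level in P. vachelli. Without the filter both calls stayed (limma adjusted p = 0.000719 and 8.72e-05), but they rest on 1 read in P. vachelli, and no conclusion is drawn from them. For the hybrid over P. fulvidraco the ratio on the deposited scale was 0.666, with an interval of 0.440 to 0.997 for counting error. These ratios were not repeated per estimated read of a library, and that upper bound is close to no difference. There the fit over libraries gave a log2 fold change of -0.59 (95% interval -1.52 to 0.33, limma adjusted p = 0.375). The sequence nearest to it in the table with more than 1 read was cgr-miR-100-3p_2ss10GA22GC, present in every library at 7.39 to 20.7.

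**Figure D2:**
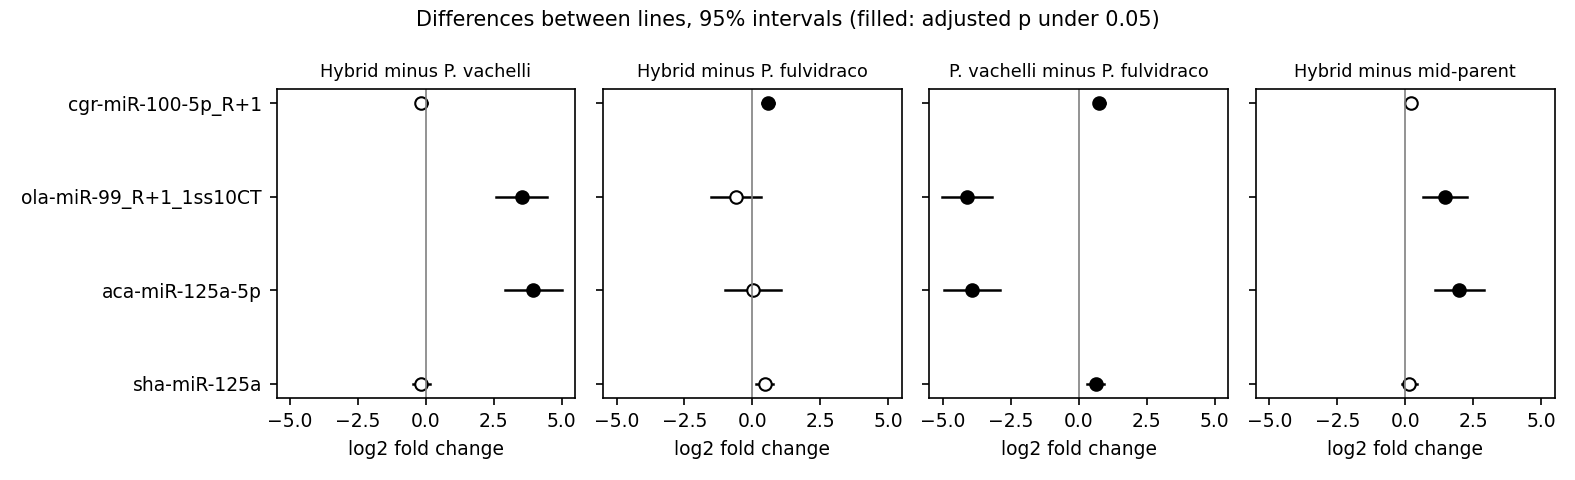
Log2 fold changes (x axis) of the 4 members (rows) in 4 comparisons, with 95% intervals from limma; filled points have an adjusted p under 0.05. aca-miR-125a-5p and ola-miR-99_R+1_1ss10CT lie at 3.95 and 3.52 for the hybrid against P. vachelli and near -4 for P. vachelli against P. fulvidraco.

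The filter favoured the calls of ola-miR-99_R+1_1ss10CT that involve P. vachelli, and they are left out of the counts for those comparisons. Of the other 3 members, P. vachelli and P. fulvidraco differed in 3, where 51.4% of all 278 sequences were called. Of these, 2 were higher in P. vachelli (30.9% of all sequences) and 1, aca-miR-125a-5p, was lower (20.5%). The same 3 had libraries that did not overlap, which held for 34.5% of all sequences in the higher direction and 24.8% in the lower.

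The hybrid differed from P. vachelli in 1 of these 3 members, aca-miR-125a-5p, where 34.9% of all sequences were called. It was higher (15.5% of all sequences), and 0 were lower (19.4%); at an unadjusted p under 0.05 limma also gave 0 lower. Without overlap lay aca-miR-125a-5p above (20.9%) and cgr-miR-100-5p_R+1 below (25.9%). From P. fulvidraco the hybrid differed in 1 of all 4 members, cgr-miR-100-5p_R+1, which was higher (12.9% of all sequences), with 0 lower (6.47%); 19.4% were called in either direction. Without overlap lay 2 members above (19.1%) and 1, ola-miR-99_R+1_1ss10CT, below (17.3%). These comparisons share libraries. With libraries scaled to equal totals the median log2 fold change over all sequences moved to 0.35 for the hybrid against P. vachelli (-0.0055 as deposited), 0.11 for the hybrid against P. fulvidraco (0.064) and -0.35 for P. vachelli against P. fulvidraco (-0.047), and the calls of cgr-miR-100-5p_R+1 and aca-miR-125a-5p were kept.

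A further comparison took the average of the log2 values of the parent species, the mid-parent, as the level to which the hybrid was compared. Where the parents lie far apart, this log2 average is well below the average of the values themselves, which was not tested. aca-miR-125a-5p lay above the log2 mid-parent (log2 fold change 1.98, SE 0.40, limma adjusted p = 0.0113), in 3 of 3 hybrid libraries. This call was lost without hybrid library 2 (adjusted p = 0.0502). On the scale of the values, hybrid library 1, at 5417, lay below the average of the parent means, 626 and 11043. ola-miR-99_R+1_1ss10CT lay above the log2 mid-parent by 1.46 (limma adjusted p = 0.0239). As values, hybrid library 1, at 8.71, lay below the average of the parent means, 0.357 and 21.2. The call was lost with a pseudocount of 10 (adjusted p = 0.105), without the filter (0.0814) and with the replicate number as a block (0.0616). It was also lost without any one of hybrid library 2 (0.0954) or 3 (0.0595), P. vachelli library 2 (0.0509) or P. fulvidraco library 2 (0.0506) or 3 (0.0568). The level of ola-miR-99_R+1_1ss10CT in P. vachelli, the line in which it did not reach the filter, enters the mid-parent. Of the other 3 members 1 was called, above the mid-parent, where 18.7% of all sequences were called, 10.1% above and 8.63% below. cgr-miR-100-5p_R+1 gave 0.20 (limma adjusted p = 0.107), which passed with equal totals (0.40, adjusted p = 0.00488), with equal totals without the most abundant miRNA (0.34, adjusted p = 0.00807) and without P. vachelli library 1 (adjusted p = 0.0361). sha-miR-125a gave 0.14 (limma adjusted p = 0.422), which passed with equal totals (0.34, adjusted p = 0.0446). On a log2 scale with P. fulvidraco at 0 and P. vachelli at 1, the hybrid was placed from the values as deposited. It stood at 0.77 for cgr-miR-100-5p_R+1, 0.73 for sha-miR-125a, -0.0043 for aca-miR-125a-5p and 0.14 for ola-miR-99_R+1_1ss10CT. The positions of cgr-miR-100-5p_R+1 and sha-miR-125a between the parents depend on the scaling. With equal totals the hybrid mean lay above both parents, by 0.17 and 0.18 over P. vachelli, neither called. The position of ola-miR-99_R+1_1ss10CT depends on the pseudocount.

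The mix of variants within the miR-125 family differed between the lines. Of the reads on both miR-125 sequences of the 5′ arm, aca-miR-125a-5p held 7.31%, 12.2% and 14.4% in the hybrid, 0.699%, 0.730% and 0.671% in P. vachelli, and 23.8%, 11.1% and 10.4% in P. fulvidraco. The P. vachelli libraries lay far below all others, and those of the hybrid and P. fulvidraco overlapped. The Wilson 95% intervals of these shares, which cover counting error only, reach at most 0.278 percentage points to either side. The log2 ratio of aca-miR-125a-5p to sha-miR-125a, which does not depend on how libraries are scaled, averaged -3.03 ± 0.57 in hybrid libraries, -7.15 ± 0.061 in those of P. vachelli and -2.60 ± 0.80 in those of P. fulvidraco (SD, n = 3 each; exact permutation test over the 3 lines, p = 0.0214, adjusted over 3 ratios p = 0.0321). The 3 ratios include that of ola-miR-99_R+1_1ss10CT to cgr-miR-100-5p_R+1, of which no test is given below, and its inclusion lowers this adjusted p. The ratio of aca-miR-125a-5p to sha-miR-125a was 4.12 higher in the hybrid than in P. vachelli. Between 3 libraries and 3, an exact test cannot go below 0.1, which was its value for both comparisons with P. vachelli, against 0.6 for the hybrid and P. fulvidraco. If reads of sha-miR-125a were divided between its entries, the shares of aca-miR-125a-5p are 3.79% to 7.73%, 0.337% to 0.366% and 5.46% to 13.5% in the same order of lines.

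**Figure D3:**
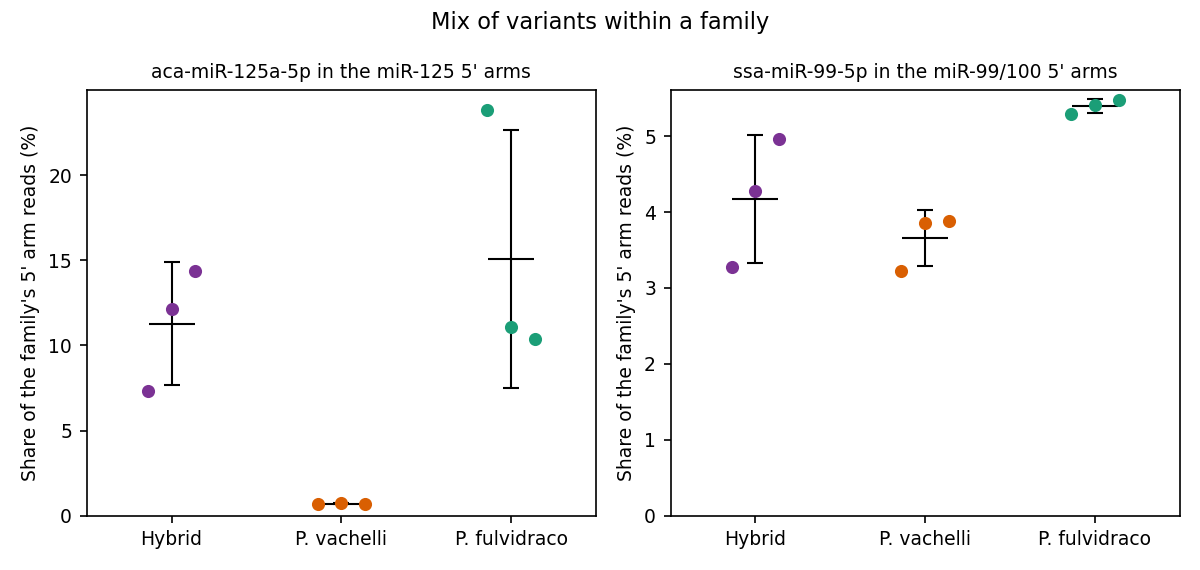
Share in percent (y axis) that aca-miR-125a-5p holds of the miR-125 reads of the 5′ arm (left) and ssa-miR-99-5p of the miR-99/100 reads of the 5′ arm (right), by line (x axis). Points are libraries and bars the mean ± SD; the P. vachelli libraries are at 0.671% to 0.730% on the left, and the P. fulvidraco libraries at 5.29% to 5.48% on the right.

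Within the miR-99/100 seed the mix moved far less. miR-100 made up 95.03% to 96.7% of these reads in the hybrid, 96.1% to 96.8% in P. vachelli and 94.5% to 94.7% in P. fulvidraco. ssa-miR-99-5p held 3.28%, 4.28% and 4.96% in the hybrid, 3.23%, 3.86% and 3.89% in P. vachelli, and 5.29%, 5.42% and 5.48% in P. fulvidraco. The share was highest in P. fulvidraco, without overlap, and the other lines overlapped. The log2 ratio of ssa-miR-99-5p to cgr-miR-100-5p_R+1, added after the values were seen, gave -4.54 ± 0.31 in hybrid libraries, -4.72 ± 0.16 in those of P. vachelli and -4.13 ± 0.027 in those of P. fulvidraco (SD, n = 3 each; exact permutation test, p = 0.0357, adjusted p = 0.0357). It did not pass when any library other than hybrid library 1 or 3 was left out (exact p from 0.0679 to 0.125). The level of ssa-miR-99-5p itself was 11007 to 16011 in the hybrid, 13348 to 13775 in P. vachelli and 11286 to 13292 in P. fulvidraco. It was called in none of the 3 comparisons between lines (limma adjusted p = 0.353 to 0.962). The log2 ratio first chosen for the family, that of ola-miR-99_R+1_1ss10CT to cgr-miR-100-5p_R+1, sets a 3′ arm against a 5′ arm and needed a pseudocount of 1. It averaged -14.4 in hybrid libraries, -18.1 in those of P. vachelli and -13.2 in those of P. fulvidraco. Since ola-miR-99_R+1_1ss10CT passed the filter only through the other lines, the filter favoured a low ratio in P. vachelli. The distance depends on the pseudocount, and no test of this ratio is given.

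efu-miR-99b_R-3, the rarest sequence with the miR-99/100 seed, stood at 16.4, 12.8 and 9.25 in the hybrid, 8.60, 3.59 and 8.30 in P. vachelli, and 6.51, 64.2 and 49.9 in P. fulvidraco. P. fulvidraco library 1, which was the highest for aca-miR-125a-5p, was the lowest of its line here. The log2 fold change of -1.98 for P. vachelli against P. fulvidraco was barely past the threshold (limma adjusted p = 0.0453). No P. vachelli library reached 10, so efu-miR-99b_R-3 passed the filter only through the hybrid and P. fulvidraco. The filter favoured a lower level in P. vachelli, and no conclusion is drawn from the call. The difference did not pass without the filter (adjusted p = 0.0700), without the trend (0.0593) or with the replicate block (0.0796). Nor did it pass without any library other than hybrid library 3 and P. fulvidraco library 1 (up to 0.171). Without the last of these the log2 fold change was -2.96 (adjusted p = 0.000473), with the same limit from the filter.

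The 5′ arms outnumbered the 3′ arms by far. The 3′ arm sequence ssa-miR-125a-2-3p_3ss20CG21GC22CT stood at 46.4 to 64.2 in the hybrid, 28.7 to 46.3 in P. vachelli and 41.01 to 59.1 in P. fulvidraco. The values of cgr-miR-100-3p_2ss10GA22GC were 8.09 to 15.8 in the hybrid, 12.9 to 20.7 in P. vachelli and 7.39 to 13.9 in P. fulvidraco, and limma called neither sequence in any comparison. The ratio of cgr-miR-100-5p_R+1 to cgr-miR-100-3p_2ss10GA22GC was 20631 to 37888 in the hybrid, 16095 to 31822 in P. vachelli and 15490 to 31036 in P. fulvidraco, so the lines overlapped. For sha-miR-125a over ssa-miR-125a-2-3p_3ss20CG21GC22CT it was 1342 to 1479 in the hybrid, 1837 to 2686 in P. vachelli and 960 to 1280 in P. fulvidraco. The lines did not overlap, but the 3′ arm sequence held only 64 to 128 reads per library over both entries. Whether the gap between 1280 and 1342 exceeds counting error was not tested. Summed over variants, the miR-99/100 reads of the 5′ arm were 3.02 to 4.53 times those of miR-125 in the hybrid, 4.02 to 4.45 times in P. vachelli and 2.71 to 3.84 times in P. fulvidraco. Summing both entries of sha-miR-125a, the same ratio was 1.63 to 2.35 in the hybrid, 2.02 to 2.23 in P. vachelli and 1.54 to 2.02 in P. fulvidraco.

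The members varied to very different degrees between libraries of one line. The SD within lines, on log2 of the value plus 1, was 0.12 for cgr-miR-100-5p_R+1, 0.20 for sha-miR-125a, 0.47 for ola-miR-99_R+1_1ss10CT and 0.71 for aca-miR-125a-5p, against a median of 0.25 over 278 sequences. The SD of ola-miR-99_R+1_1ss10CT rests on 0 to 24 reads per library, and the part of counting error in it was not tested. Among the 139 sequences of higher mean level, with a median of 0.18, only 1 had a larger SD than aca-miR-125a-5p. Its coefficient of variation was 47.3% in hybrid libraries, 15.4% in those of P. vachelli and 70.4% in those of P. fulvidraco. For cgr-miR-100-5p_R+1 these were 3.32%, 11.9% and 7.58%, and for sha-miR-125a 14.6%, 16.0% and 10.1%, in the same order.

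**Figure D4:**
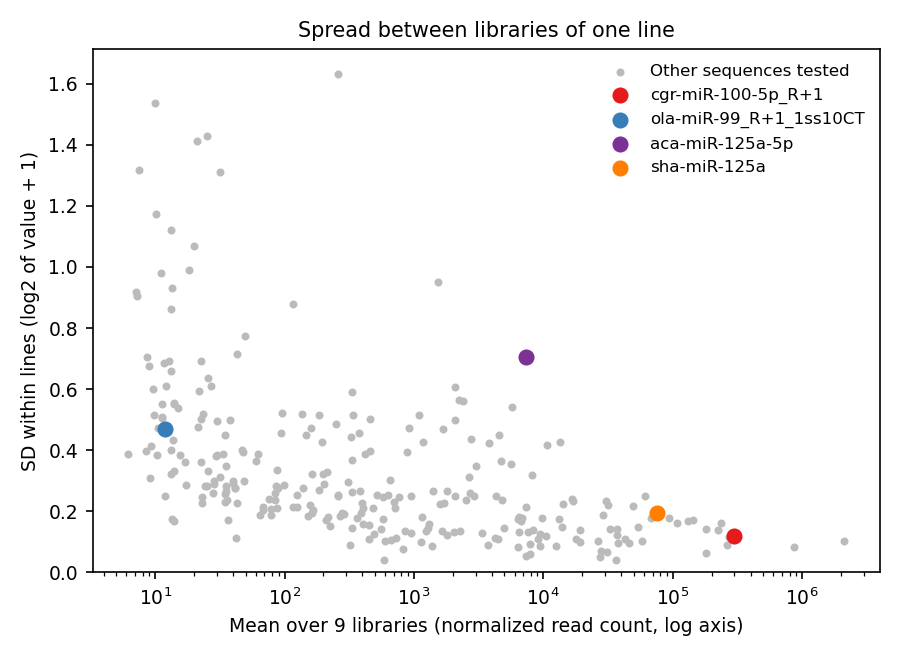
SD within lines on the log2 scale (y axis) against the mean normalized read count over 9 libraries (x axis, log scale) for the 278 sequences tested. aca-miR-125a-5p, at 0.71, lies above nearly all sequences of its level, while cgr-miR-100-5p_R+1 lies at 0.12 and sha-miR-125a at 0.20.

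The spread of aca-miR-125a-5p was shared with a let-7 miRNA. Among 270 tested sequences of other families, dre-let-7d-5p had the pattern most like it, with Pearson's r of 0.994 over the 9 libraries and 0.989 for the deviations from the line means. For the deviations r was 0.965 without the 2 libraries farthest from the middle, P. fulvidraco library 1 and hybrid library 3. The spread was not particular to this pair. Next by r for the deviations came ola-let-7b_R+1 (0.904), tni-miR-455 (0.902), xtr-miR-92a_R+1 (0.861) and dre-miR-199-5p (0.830). These are descriptions of 9 points that share their libraries. dre-let-7d-5p stood at 1452, 2742 and 3598 in the hybrid, 386, 365 and 377.3 in P. vachelli, and 5575, 2101 and 2130 in P. fulvidraco. Both miRNAs were highest in P. fulvidraco library 1, and both were lowest in library 1 and highest in library 3 among the hybrid libraries. The ratio of aca-miR-125a-5p to dre-let-7d-5p was 3.73 to 4.26 in the hybrid, 1.52 to 1.91 in P. vachelli and 3.08 to 3.59 in P. fulvidraco. It was lowest in P. vachelli, without overlap. For dre-let-7d-5p the log2 fold change was 2.69 for the hybrid against P. vachelli (limma adjusted p = 0.000741) and -2.96 for P. vachelli against P. fulvidraco (0.000245).

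**Figure D5:**
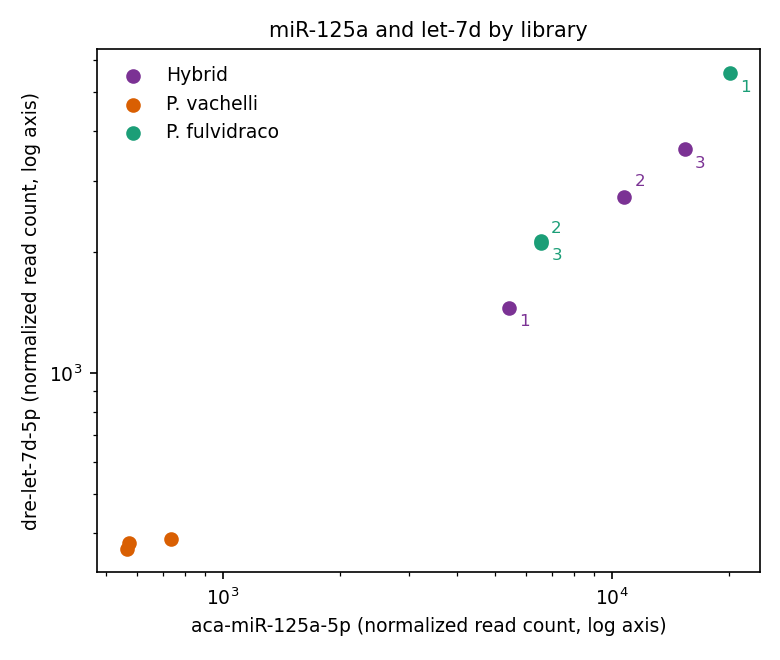
dre-let-7d-5p (y axis) against aca-miR-125a-5p (x axis), both as normalized read counts on log axes, 1 point per library; digits are the replicate numbers of hybrid and P. fulvidraco libraries. The 9 points fall along one line, from P. vachelli at 568 to 737 on the x axis up to P. fulvidraco library 1 at 20024.

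The let-7 list, dre-let-7d-5p included, held calls in both directions. Of 18 tested, 3 were higher and 6 lower in the hybrid than P. vachelli, where 15.5% of all sequences were called higher and 19.4% lower, and their median log2 fold change was -0.092 (all sequences, -0.0055). Against P. fulvidraco the hybrid had 0 higher and 3 lower, where 12.9% and 6.47% of all sequences were, with a median of -0.20 (all sequences, 0.064). P. vachelli had 4 higher and 5 lower than P. fulvidraco, where 30.9% and 20.5% of all sequences were, with a median of -0.13 (all sequences, -0.047). Against the mid-parent 1 was higher and 7 were lower in the hybrid, where 10.1% and 8.63% of all sequences were. The most abundant, ssa-let-7a-5p, gave -0.51 for the hybrid against P. vachelli (limma adjusted p = 0.000403), and ssa-let-7a-5p_2ss12GA16TA gave -0.50 (0.000835).

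Of the miR-10 family, which lies at an edit distance of 5 from miR-100 in ccr-miR-10c_R-1, 3 sequences were tested. In the hybrid against P. vachelli 0 were higher and 1 was lower, dre-miR-10c-3p_L+1R-1 (log2 fold change -0.78, limma adjusted p = 0.0184), while the most abundant, ccr-miR-10c_R-1, gave -0.52 (0.0562). In P. vachelli against P. fulvidraco 0 were higher and 1 was lower, dre-miR-10b-5p_R-1 (-1.64, limma adjusted p = 0.00315). The other comparisons called 0 of 3. Of all sequences, 15.5% were called higher and 19.4% lower in the hybrid than P. vachelli. The shares were 30.9% and 20.5% for P. vachelli against P. fulvidraco. For the hybrid they were 12.9% and 6.47% against P. fulvidraco, and 10.1% and 8.63% against the mid-parent.

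The other members had other partners. Their r over 9 libraries holds the differences between lines, so r for the deviations from the line means is given second. For sha-miR-125a they were dre-miR-199-5p (r = 0.935 over 9 libraries, 0.875 for deviations), ssa-miR-199a-5p_1ss11AG (0.915, 0.798) and pma-miR-181a-5p (0.913, 0.911). miR-199 is known from fibroblasts and other mesenchymal cells. For cgr-miR-100-5p_R+1 they were hsa-mir-3074-p5 (0.974, 0.837) and the predicted candidates PC-3p-46140_42 (0.961, 0.624) and PC-5p-3257_591 (0.958, 0.134). For ola-miR-99_R+1_1ss10CT they were the candidates PC-5p-27278_89 (0.981, 0.509) and PC-5p-30865_77 (0.972, 0.149), then dre-miR-135b-5p_R+1 (0.959, 0.727). As ola-miR-99_R+1_1ss10CT passed the filter only through the other lines, the filter favoured a high r over 9 libraries with sequences low in P. vachelli. The candidates PC-3p-46140_42 and PC-5p-3257_591 stood at 0 to 0.93 in P. fulvidraco. They passed the filter only through the other lines, which limits their r with cgr-miR-100-5p_R+1 in the same way. After dre-let-7d-5p, the sequences most like aca-miR-125a-5p by r over 9 libraries were ssa-miR-19c-4-5p_R+1_2ss17TA21AT (0.967, 0.744) and PC-3p-32515_72 (0.960, 0.669). Those most like it by deviations are named above. Between members, r over 9 libraries was 0.892 for cgr-miR-100-5p_R+1 with sha-miR-125a and -0.454 for both miR-125 members. It was 0.956 for ola-miR-99_R+1_1ss10CT with aca-miR-125a-5p, to which the same limit from the filter applies.

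Liver holds several cell types, and in bulk libraries fewer cells of a type and less RNA per cell cannot be told apart. The smooth muscle and fibroblast miRNAs, 15 sequences, summed to 301026 to 366360 in the hybrid, 381872 to 427093 in P. vachelli and 293649 to 343293 in P. fulvidraco. On the deposited scale they moved between the species with cgr-miR-100-5p_R+1 and sha-miR-125a. Most of the sum was miR-199, the family named above as most like sha-miR-125a. It stood at 302711 to 337110 in P. vachelli and 239283 to 286477 in P. fulvidraco. miR-145 of the list overlapped between them, at 3792 to 6835 and 4446 to 5790. Of 12 tested sequences of the list 8 were higher and 0 lower in P. vachelli than in P. fulvidraco, where 30.9% of all sequences were called higher and 20.5% lower. The endothelial miRNA miR-126 moved likewise, at 217286 to 248850 in the hybrid, 335528 to 396618 in P. vachelli and 227326 to 258734 in P. fulvidraco. Of its 5 tested sequences 5 were higher, against the same 30.9%. The hybrid overlapped P. fulvidraco in both sums, while in cgr-miR-100-5p_R+1 and sha-miR-125a it lay above P. fulvidraco without overlap. The direction between the species was not particular to these lists. Epithelial miRNAs had 3 of 4 higher and 0 lower in P. vachelli, and miR-122 had 1 of 4 higher and 0 lower. Leukocyte (0 higher, 2 lower), neural (1, 2) and muscle (2, 3) lists did not share it, and pancreas had 0 calls. Library totals over distinct sequences were also higher in P. vachelli, 6994970 to 7650640 against 5678170 to 6254120 in P. fulvidraco. The sums and calls of all lists, here and below, are on the deposited scale and were not repeated with equal totals. With that scaling the median log2 fold change over all sequences moved to -0.35 for P. vachelli against P. fulvidraco. Whether the lists still move with the members there was not tested.

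With aca-miR-125a-5p moved the erythroid miRNAs, at 58720 to 97610 in the hybrid, 37915 to 42304 in P. vachelli and 78963 to 94637 in P. fulvidraco. Of 8 tested, 5 were higher and 0 lower in the hybrid than P. vachelli, where 15.5% of all sequences were called higher and 19.4% lower. In P. vachelli 2 were higher and 5 lower than in P. fulvidraco, against 30.9% and 20.5% of all sequences. Among hybrid libraries the erythroid sum was highest in library 1, where aca-miR-125a-5p was lowest. Muscle miRNAs summed to 810 to 1743 in the hybrid, 444 to 485 in P. vachelli and 925 to 1213 in P. fulvidraco, with 3 of 6 tested higher and 2 lower in the hybrid than P. vachelli, against the same 15.5% and 19.4%. Of the muscle list miR-208, and of the epithelial list miR-141, had no sequence in the table, and the other families of all lists were above 0 in every library. Leukocyte miRNAs summed to 14531 to 15288 in the hybrid, 13078 to 14145 in P. vachelli and 14475 to 15549 in P. fulvidraco. Neural miRNAs summed to 614 to 698, 658 to 914 and 736 to 1007, those of pancreas to 9781 to 17385, 5730 to 12104 and 8465 to 15441, and those of epithelium to 13795 to 14399, 16736 to 18681 and 12516 to 14241, in the same order of lines. The leukocyte list had 2 of 7 tested higher and 0 lower in the hybrid than P. vachelli, against the same 15.5% and 19.4%. Erythroid, muscle and leukocyte sums were all lowest in P. vachelli without overlap, so the direction was not particular to the erythroid list. The part of these cell types in the differences of the members was not tested.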

How the data were processed

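Small RNA sequencing gave 9 libraries of juvenile liver, 3 per line. Per the labels' protocols, the TruSeq Small RNA kit was used, and reads were filtered by the authors with ACGT101-miR. The deposited signal per library and miRNA is a normalized read count, per the file headers. How values were normalized, against which miRNA reference and on which build is not given in the sources used here; no coordinates are printed.

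The 888 entries were reduced to 728 distinct sequences, since 153 sequences stood on more than 1 entry with equal values. The value of 1 read was found per library as the step on which low values of sequences with 1 entry fall. Of their nonzero values under 30, 85.8% to 93.8% were whole within 0.1 read. The rest were not whole, and shared entries can hold parts of reads, so values were not treated as counts. Depth was 5737230 to 8579460 estimated reads per library. The labels name no molecular identifiers, so reads are not counted as independent molecules: floors (3 reads) and intervals cover counting error only.

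limma 3.58.1 in R 4.3.3 (limma-trend) was fitted to log2 of the value plus 1 over all 9 libraries, for the 278 sequences with a value of 10 or above in 3 libraries or more. Two-sided p-values had Benjamini-Hochberg adjustment over all 278, with a threshold of 0.05. Ratios were tested by exact permutation of an F statistic. Methods were tested on simulated data. Alternatives covered scaling, pseudocount, filter, trend, a replicate block, pairs of lines fitted alone, all or summed entries, and each library left out. Duplexes were predicted with RNAduplex of ViennaRNA 2.7.2. Tables and figures used Python 3.11.15, numpy 2.4.6, pandas 2.3.3, scipy 1.17.1 and matplotlib 3.10.9.

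The members and the let-7, miR-10 and cell marker lists were chosen with earlier results of these data known. Besides the members, the text names all sequences called miR-99, miR-100 or miR-125 or sharing a seed with a member, and the 3 sequences most like each member. For aca-miR-125a-5p it also names those that follow dre-let-7d-5p in r for deviations from the line means. From the let-7 and miR-10 lists it names the most abundant sequence and the 2 others with the smallest p in the hybrid against P. vachelli. The ratio of ssa-miR-99-5p to cgr-miR-100-5p_R+1 and the pseudocount in the ratio of ola-miR-99_R+1_1ss10CT were chosen after the values were seen.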

Additional observations from a re-analysis of the deposited data

How the results depend on the processing

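Counts of called sequences over the whole table moved by more than 1.5 times in these cases. With a minimum of 100 they were 34 for the hybrid against P. fulvidraco (54 as reported) and 93 for P. vachelli against P. fulvidraco (51.4% of 278 as reported). Only 179 sequences were tested there, so these counts fall with the number tested. For the hybrid against the mid-parent (52) they were 21 without the filter, 30 with the replicate block and 81 with all entries. With a library left out, some counts moved by that much for the hybrid against P. fulvidraco (31 to 59) and against the mid-parent (18 to 58). None did for the hybrid against P. vachelli (73 to 103) or for P. vachelli against P. fulvidraco (110 or more). Replicate numbers did not pair the libraries, since 2 of 9 same-numbered pairs deviated together with a correlation above 0.1 and 1 of 9 libraries correlated best with its own number. The block ended, of the members' calls, only that of ola-miR-99_R+1_1ss10CT against the mid-parent (1.46, adjusted p = 0.0616).

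Of the members, the calls of cgr-miR-100-5p_R+1 against P. fulvidraco in the hybrid and in P. vachelli, and those of aca-miR-125a-5p in both comparisons with P. vachelli, held under all 21 settings. Without 1 library, cgr-miR-100-5p_R+1 gave 0.52 to 0.63 and 0.65 to 0.81, and aca-miR-125a-5p 3.61 to 4.36 for the hybrid against P. vachelli and -4.20 to -3.40 for P. vachelli against P. fulvidraco. With equal totals, the hybrid minus P. vachelli reversed to 0.17 for cgr-miR-100-5p_R+1 and 0.18 for sha-miR-125a, and to 0.11 and 0.12 without the most abundant miRNA, none of them called. Under both scalings sha-miR-125a passed for the hybrid against P. fulvidraco (0.49 and 0.44), as it did with entries summed (0.45), and cgr-miR-100-5p_R+1 passed against the mid-parent (0.40 and 0.34). With equal totals sha-miR-125a passed against the mid-parent (0.34) and missed for P. vachelli against P. fulvidraco (0.31). The difference of aca-miR-125a-5p between the hybrid and P. fulvidraco, near 0, reversed to -0.022 with median ratios and ran from -0.32 to 0.55 without 1 library. For sha-miR-125a against P. fulvidraco the hybrid ran from 0.34 to 0.55. Against the mid-parent, ola-miR-99_R+1_1ss10CT gave 0.41 with a pseudocount of 10 and 1.46 without the filter, both missing the threshold. Without 1 library, mid-parent values were 1.28 to 1.76 for ola-miR-99_R+1_1ss10CT, 1.65 to 2.40 for aca-miR-125a-5p and 0.17 to 0.25 for cgr-miR-100-5p_R+1. For ssa-miR-99-5p, P. vachelli minus P. fulvidraco reversed to -0.14 and -0.13 under the equal totals scalings. Its hybrid minus P. vachelli reversed to -0.025 with median ratios, was called with equal totals (0.35, adjusted p = 0.0455), and ran from -0.11 to 0.16 without 1 library. The log2 ratio of ssa-miR-99-5p to cgr-miR-100-5p_R+1 differed between the hybrid and P. vachelli by 0.041 to 0.35 without 1 library. That of aca-miR-125a-5p to sha-miR-125a passed in each case (3.89 to 4.43). The causes of these changes were not tested. ola-miR-99_R+1_1ss10CT could not be tested at a minimum of 100 or, against P. vachelli alone, in the pair fitted alone. Nor could efu-miR-99b_R-3 be tested at a minimum of 100 or, for P. vachelli against P. fulvidraco, in the pair fitted alone.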
